A study of Homo sapiens with 9 samples.

Results

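Transcript levels were compared between A375P melanoma cells held for 6 h in the solvent DMSO and cells held for 6 h in 1 µM PD184352, which blocks MEK, or in 0.4 µM PLX4720, which blocks RAF kinases. These are 3 of the 9 deposited columns of the series, which also covers 2 h and 24 h with the same treatments, and all columns come from the same cell line in medium with fetal serum. A375P is an established human melanoma line that carries a mutant RAF kinase, and the series asks which genes answer directly to that kinase and to MEK. The design text speaks of triplicates, but each treatment and time has 1 column, and the sources used here do not say whether a column is 1 array or a mean of arrays. No difference below therefore has a replicate check, and no p-value is given. The doses of the compounds differ, so their values are set side by side.

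In the ERK pathway a RAF kinase phosphorylates MEK, MEK phosphorylates ERK, and ERK switches on transcription through ETS, AP-1 and serum response factors. Among the first genes it induces are its own brakes: phosphatases of the DUSP family that remove the activating phosphates from ERK, and Sprouty and SPRED proteins that act above RAF. In melanoma with a mutant RAF the pathway runs without a growth factor, and these brakes are transcribed at a high rate without shutting it off.

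Of 17047 genes with a row that names 1 gene, 12785 were kept after the dimmest 25% were left out. Dimness was judged by the mean over all 9 columns, inhibitor columns included. A gene dim in DMSO could therefore be kept because it rose with the compounds. Values are differences in log2(intensity + 1), which understate the change of dim genes, and a gene is called lower or higher when it moved past 1.5-fold with both compounds in the same direction. Of the 12785 genes, 157 (1.23%) were lower with both compounds at 6 h and 19 (0.149%) were higher. PD184352 alone took 200 genes past 1.5-fold lower (1.56%) and 43 higher (0.336%), and PLX4720 alone took 209 lower (1.63%) and 33 higher (0.258%), which are 1.90% and 1.89% of genes in either direction. Between solvent columns, 0.602% of genes passed 1.5-fold from 2 h to 6 h and 0.532% from 6 h to 24 h. Both comparisons use the same DMSO 6 h column, so a high or low reading in that column moves both. The same rule applied to solvent columns, with DMSO 2 h and DMSO 24 h both set against DMSO 6 h, gave 4 genes lower (0.0313%) and 1 higher (0.00782%). At 2-fold the compounds gave 42 lower genes (0.329%) and 0 higher genes, and the solvent columns gave 0 in either direction. Taken alone, PD184352 moved 0.461% of genes past 2-fold and PLX4720 0.383%.

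**Figure D1:**
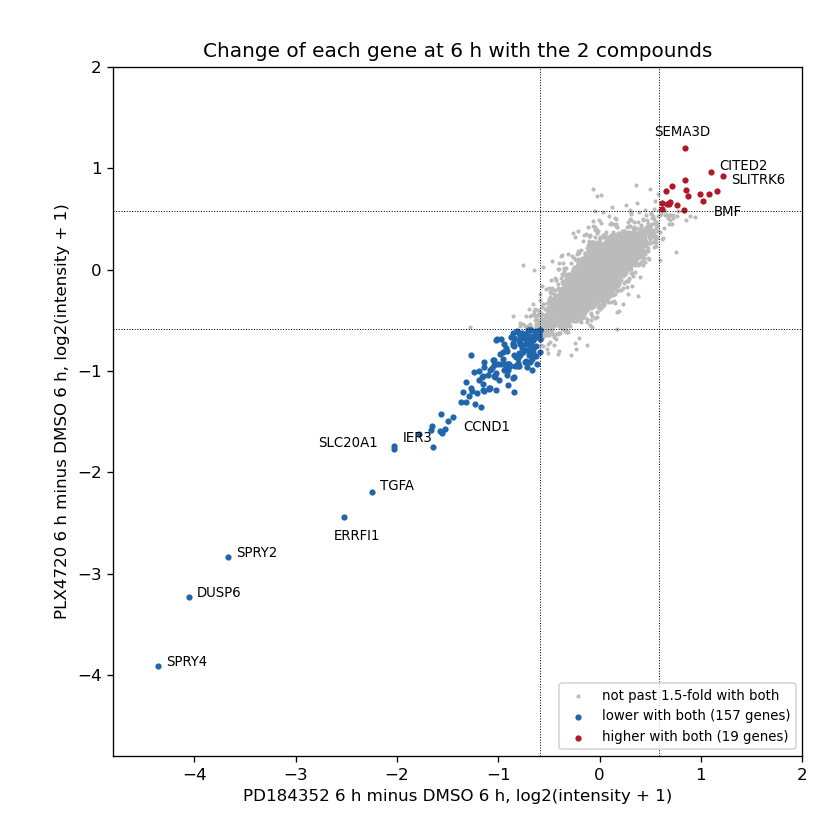
Change of each of 12785 genes at 6 h with PD184352 (horizontal axis) and PLX4720 (vertical axis), each as the difference from the DMSO 6 h column in log2(intensity + 1). Dotted lines mark 1.5-fold. The 157 lower genes reach past −3.9 with both compounds, and the 19 higher genes stay within 1.3 of no change. Both axes share the DMSO column.

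Median intensity lay between 98.96 and 102.4 in all 9 columns. The 99th percentile of intensity at 6 h was 1754 with DMSO, 1654 with PD184352 and 1615 with PLX4720. With quantile normalization, which makes these percentiles equal, 126 genes were lower and 26 higher. The solvent columns of the other times give a further measure of spread for each gene. The call itself puts both inhibitor columns outside DMSO 6 h, so only DMSO 2 h and DMSO 24 h add to it. Both inhibitor columns of 6 h lay below all 3 DMSO columns for 155 of the 157 lower genes. They lay above all 3 for 18 of the 19 higher genes. Over all genes, which no call picked, the shares were 16.4% and 11.5%, so this is not a like comparison. Only a called gene can have both inhibitor columns at least 1.5-fold outside all 3, so no background share exists for this count. It held for 84 of the lower genes and 10 of the higher genes, which are 0.657% and 0.0782% of all genes. DMSO 6 h was the highest of the solvent columns for 61.1% of the lower genes and for 34.5% of all genes. With DMSO 2 h or DMSO 24 h as the control, 102 and 103 of the 157 lower genes kept their call. Of the lower genes named below, B4GALT5, CDK6, CEMIP2, CIITA, DKK1, DUSP7, EGR3, EPHA2, IER2, LEF1, LYAR, MAP2K3, MAP3K9, PDK4, PHLDA2, RCAN1, RGS16, RNF43, RPS6KA5, RRS1, SH3TC2, TRIB2, UAP1, VEGFA, WNT5A and ZEB1 were not past 1.5-fold against every DMSO column. The melanocyte lineage genes SOX10 (1152 with DMSO, 1213 with PD184352 and 1080.0 with PLX4720, in intensity units) and PMEL (1996, 2198 and 1942) and the lineage factor MITF (744, 914 and 878) were measured in all 3 columns. Of 7 melanocyte lineage markers with a row, 6 were kept, and none was called lower or higher. Their mean changes ran from −0.29 to 0.27, with a median of −0.02. Markers of keratinocytes, fibroblasts, immune cells and endothelium, 12 kept of 17 with a row, also held no called gene. Over all genes 1.23% were lower and 0.149% higher, so lists this short would be likely to hold no called gene in any case.

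Regulatory sequence is shown first for 4 genes that carry the results below: EGR1 and RND3, which were lower at 2 h as well as 6 h and hold a serum response element near their start, SPRY4, the gene furthest down, and SLITRK6, which had the highest mean change. Each window runs from 250 bases before to 50 bases after the gene's start in RefSeq (GRCh38.p14), 5′ to 3′ on the gene's strand. Capitals mark serum response elements in EGR1 and RND3, the EGR motif GCGNGGGCG (here on the opposite strand) in SPRY4, and the AP-1 motif TGANTCA in SLITRK6. EGR1 lies at chr5:138465229-138465528 on the plus strand, RND3 at chr2:150487646-150487945, SPRY4 at chr5:142324198-142324497 and SLITRK6 at chr13:85799370-85799669, these last on the minus strand.
EGR1: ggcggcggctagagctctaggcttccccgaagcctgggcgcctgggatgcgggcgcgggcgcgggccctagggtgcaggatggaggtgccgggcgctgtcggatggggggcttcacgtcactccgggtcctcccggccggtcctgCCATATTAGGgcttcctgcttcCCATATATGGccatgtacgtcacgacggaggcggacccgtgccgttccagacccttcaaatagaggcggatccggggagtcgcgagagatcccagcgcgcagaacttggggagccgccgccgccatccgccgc
RND3: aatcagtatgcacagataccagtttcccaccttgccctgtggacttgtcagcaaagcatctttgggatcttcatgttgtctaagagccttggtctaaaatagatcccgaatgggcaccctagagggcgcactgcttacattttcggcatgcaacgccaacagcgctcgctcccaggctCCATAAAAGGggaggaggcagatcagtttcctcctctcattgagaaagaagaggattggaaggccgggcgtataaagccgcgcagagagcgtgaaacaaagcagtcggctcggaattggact
SPRY4: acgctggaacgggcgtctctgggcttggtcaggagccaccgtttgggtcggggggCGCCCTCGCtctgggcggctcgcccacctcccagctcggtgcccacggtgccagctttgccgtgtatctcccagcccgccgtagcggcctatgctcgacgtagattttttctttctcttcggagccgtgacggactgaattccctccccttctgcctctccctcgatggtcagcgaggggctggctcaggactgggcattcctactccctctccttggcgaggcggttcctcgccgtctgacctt
SLITRK6: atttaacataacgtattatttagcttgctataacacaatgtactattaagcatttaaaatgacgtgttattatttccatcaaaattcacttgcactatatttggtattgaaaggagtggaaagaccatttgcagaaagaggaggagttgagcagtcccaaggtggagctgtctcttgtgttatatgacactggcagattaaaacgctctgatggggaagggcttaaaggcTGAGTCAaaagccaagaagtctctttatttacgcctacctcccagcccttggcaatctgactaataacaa

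Over both strands, 1 window per gene was searched, the first listed, for 10190 kept genes, 119 of the lower genes and 17 of the higher genes. A serum response element was in 4 of the 119 windows of lower genes (3.36%), those of EGR1, LEF1, RCAN1 and RND3, and in 1.13% of all windows. EGR1 and RND3 were printed because they had both traits, while LEF1 and RCAN1 were not past 1.5-fold with both compounds at 2 h. The AP-1 motif TGANTCA was in 9 of the lower (7.56%), 3 of the higher and 4.78% of all windows. The ETS motif CCGGAAG was in 10 of the lower (8.40%), 0 of the higher and 16.4% of all windows. The EGR motif GCGNGGGCG was in 21 of the lower (17.6%), 2 of the higher and 15.2% of all windows. The E-box CACGTG was in 14, 2 and 10.0%, the FOXO motif GTAAACA in 6, 1 and 2.19%, and the cyclic AMP element TGACGTCA in 3, 0 and 3.00%. These are matches of letters in a short window and say nothing of binding.

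The brakes on ERK were the genes furthest down. Of 17 kept genes in a list of ERK pathway inhibitors, 9 were lower (52.9%) and 0 were higher, with a median change of −0.60 against −0.02 over all genes. SPRY4, a Sprouty protein, read 1869 intensity units with DMSO at 6 h, 90.0 with PD184352 and 124 with PLX4720, which are log2 differences of −4.36 and −3.91, or 20.5-fold and 15.005-fold. DUSP6, the phosphatase that acts on ERK in the cytoplasm, read 1686 with DMSO, 101 with PD184352 and 179 with PLX4720 (−4.05 and −3.23). SPRY2 read 1294, 101 and 180.1 in the same order (−3.67 and −2.84). The DMSO columns of 2, 6 and 24 h spanned 0.57 for SPRY4, 0.32 for SPRY2 and 0.18 for DUSP6, so both inhibitor columns stood far outside the solvent spread. ERRFI1, which binds and inhibits the EGF receptor, read 1439 with DMSO, 250.01 with PD184352 and 264 with PLX4720 (−2.52 and −2.44).

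The other lower members of that list changed less. SPRED2 read 647 with DMSO, 259 with PD184352 and 299 with PLX4720 (−1.32 and −1.11). SPRED1, a relative of SPRED2, read 1384, 622 and 669 in that order (−1.15 and −1.05). The nuclear phosphatase DUSP4 read 822, 404 and 406 (−1.02 in both). DUSP5, also nuclear, was at −0.82 and −0.86, and DUSP7, which is cytoplasmic, was at −0.60 in both, just past 1.5-fold. The mean change of DUSP7 was −0.25 against DMSO 24 h and −0.50 after quantile normalization. The 8 members not past 1.5-fold with both compounds were DUSP1, DUSP2, DUSP8, DUSP10, DUSP16, SPRY1, SPRED3 and IL17RD. Their mean changes ran from −0.45 for DUSP10, which acts on JNK and p38, to 0.26 for DUSP8.

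**Figure D2:**
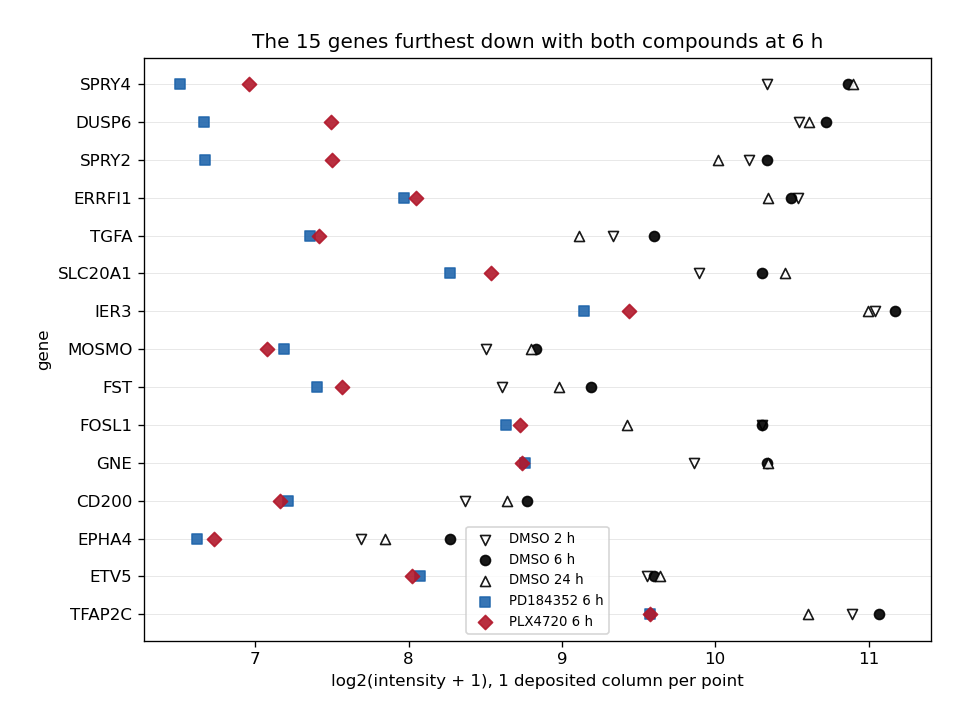
log2(intensity + 1) of the 15 genes furthest down at 6 h (vertical axis) in 5 deposited columns: DMSO at 2, 6 and 24 h (black and open symbols), PD184352 at 6 h (blue squares) and PLX4720 at 6 h (red diamonds). In each of the 15 genes both inhibitor columns lie below all 3 DMSO columns. FOSL1 has the widest solvent spread of these genes, 0.88, with its DMSO 24 h column lowest.

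Genes of ligands, receptors and other surface or secreted proteins were also among those furthest down. TGFA, a ligand of the EGF receptor, read 777 with DMSO, 163 with PD184352 and 169 with PLX4720 (−2.25 and −2.19). EGFR, the gene of that receptor, was among the genes left out as dim. Of 21 kept growth factor and receptor genes 4 were lower and 0 were higher, with a median of −0.07 (1.23% and 0.149% of all genes were, with a median of −0.02, and the same shares stand beside every list count that follows). EPHA4, an ephrin receptor kinase, read 308, 97.4 and 105 (−1.65 and −1.54). Its relative EPHA2 was at −0.78 and −0.64, and VEGFA, an angiogenic factor, was at −0.75 and −0.66. FST, a secreted protein that traps activin, read 582 with DMSO, 168 with PD184352 and 189 with PLX4720 (−1.79 and −1.62). Against DMSO 2 h the mean change was −1.01 for EPHA4 and −1.12 for FST. CD200, a surface protein that restrains myeloid cells, read 437, 148 and 142 (−1.56 and −1.61). MOSMO, a membrane protein that dampens Hedgehog signalling by lowering Smoothened, read 454, 145 and 134 (−1.64 and −1.75). These are values of 1 of several rows of MOSMO, and the mean of its rows gave a mean change of −0.86. Of 13 kept cytokine and chemokine genes, none was called, and their mean changes lay between −0.28 and 0.25.

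Transport and sugar genes were also among the 15 furthest down. SLC20A1, a sodium-dependent phosphate transporter, read 1262 with DMSO, 308 with PD184352 and 370.3 with PLX4720 (−2.03 and −1.77). GNE, the enzyme that starts sialic acid synthesis, read 1292, 432 and 427 (−1.58 and −1.60). Further genes of sugar chains on lipids and proteins, picked here after their values were seen, were lower too. ST3GAL5, which adds sialic acid to make the ganglioside GM3, read 279, 113 and 117 (−1.29 and −1.25). B4GALT6 and B4GALT5, which both make lactosylceramide, the lipid that ST3GAL5 uses, were at −0.74 and −0.91 and at −0.59 and −0.60. UAP1, which makes UDP-N-acetylglucosamine, was at −0.82 and −0.61.

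Transcription factors on the path from ERK to the nucleus were lower in part. Of 24 kept immediate-early genes 7 were lower and 0 higher, with a median of −0.22. IER3, a stress-response gene, read 2312 with DMSO, 566 with PD184352 and 691 with PLX4720 (−2.03 and −1.74). FOSL1, the AP-1 subunit also known as FRA1, read 1264, 397 and 422 (−1.67 and −1.58), with a mean change of −0.75 against DMSO 24 h. EGR1, a zinc finger factor, read 405, 168 and 179.9 (−1.27 and −1.17). EGR3 (−0.84 and −1.06), KLF4 (−0.94 and −0.99), MYC (−0.85 and −0.73) and IER2 (−0.67 and −0.74) completed the lower members. The remaining AP-1 genes were not called: JUN read 0.04 and −0.02, FOS −0.45 and −0.55, JUNB −0.25 and −0.32, and FOSL2 0.60 and 0.55.

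The ETS factors ETV5 and ETV1, whose stability and transcription depend on ERK signalling, were lower. ETV5 read 775 with DMSO, 268 with PD184352 and 259 with PLX4720 (−1.53 and −1.57). ETV1 read 414, 176 and 165 (−1.23 and −1.32). ELK3, a ternary complex factor that works with serum response factor, was at −1.02 and −1.19. Their close relative ETV4 was at −0.51 and −0.82 and was not past 1.5-fold with PD184352. In all, 3 of 11 kept ETS genes were lower and 0 were higher, with a median of −0.46.

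Among 23 kept genes of a list of further melanoma transcription factors, 6 were lower and 1 was higher. TFAP2C, an AP-2 factor of neural crest and skin, read 2145 with DMSO, 761 with PD184352 and 762 with PLX4720 (−1.49 in both). SNAI1, a repressor of epithelial genes, read 462, 198 and 198 (−1.21 and −1.22), with a mean change of −0.63 against DMSO 2 h. HOXB2 was at −1.09 and −1.18, HES1, a Notch target, at −1.0 and −0.93, and POU3F2 (BRN2), tied to invasive melanoma, at −1.14 and −0.91. The paralogs ZEB1 and ZEB2, both repressors of epithelial genes, moved in opposite directions. ZEB1 read 142 with DMSO, 88.9 with PD184352 and 82.4 with PLX4720 (−0.67 and −0.78), while ZEB2 read 192, 345 and 356 (0.84 and 0.88). For ZEB2 the 3 DMSO columns spanned 0.10, and both inhibitor columns lay above them. For ZEB1 the mean change was −0.45 against DMSO 2 h and −0.97 against DMSO 24 h, so its call ends with the former.

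A pair of metabolic coactivators, chosen after their values were seen, split in the same manner. PPARGC1A, a regulator of mitochondrial genes that MITF drives in melanoma, read 145 with DMSO, 262 with PD184352 and 251 with PLX4720 (0.85 and 0.79). Its DMSO columns spanned 0.73, and the DMSO 24 h column nearly reached the inhibitor columns. PPARGC1B, its paralog, read 462, 237 and 251 (−0.96 and −0.88). Both genes have several rows, and with the mean over rows neither was called, at 0.54 for PPARGC1A and −0.62 for PPARGC1B in mean change.

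Most cell cycle genes were not called at 6 h. CCND1 (cyclin D1), which carries ERK signals into G1, read 2339 with DMSO, 856 with PD184352 and 853 with PLX4720 (−1.45 in both). Its partner kinase CDK6 read 898, 537 and 570.1 (−0.74 and −0.66). These were the 2 lower members of 11 kept G1 genes, whose median was −0.23 at 6 h and −0.97 at 24 h. CDC25A, a phosphatase that activates CDK2, was at −0.58 and −0.56, just short of 1.5-fold, and was not called. None of 28 kept DNA replication genes and none of 24 kept mitosis genes was lower or higher at 6 h, with medians of −0.09 and −0.02, and 26 and 24 of them were past 1.5-fold lower with both compounds at 24 h. Of 19 ribosome biogenesis genes 2 were lower, RRS1 (−0.78 and −0.67) and LYAR (−0.63 and −0.60), with a median of −0.34. Against DMSO 2 h their mean changes were −0.48 and −0.44, and LYAR was at −0.50 after quantile normalization, so these calls end.

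In the BCL2 family 1 of 13 kept genes was lower and 1 was higher, with a median of −0.02. PMAIP1 (NOXA), a BH3-only protein that promotes death and also a p53 target, read 348 with DMSO, 139 with PD184352 and 140.0 with PLX4720 (−1.31 in both). BMF, another BH3-only protein, read 164, 346 and 275 (1.08 and 0.75), and its DMSO columns spanned 0.08. None of the other 11 kept members of the BCL2 family was called. Of 16 FOXO targets 1 was higher, CITED2, and 2 were lower, FBXO32, a ubiquitin ligase subunit of muscle wasting (−1.10 and −1.04), and PDK4, which blocks pyruvate entry into mitochondria (−0.86 and −0.74). The median of the FOXO targets was 0.095. SESN3, a FOXO target that restrains growth signalling, was at 0.77 and 0.58, just short of 1.5-fold with PLX4720, and was not called. None of the 16 kept genes in the list of p53 targets, which does not hold PMAIP1, was called. They ran from PLK3 at −0.69 and −0.56 to TP53INP1 at 0.85 and 0.49.

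Of 11 RGS and PHLDA genes 3 were lower: PHLDA1 (−1.04 and −0.89), PHLDA2 (−0.71 and −0.79) and RGS16, which speeds the shutdown of G proteins (−0.59 and −0.69). The next lists held 1 called gene each. PLAT, tissue plasminogen activator (−0.80 and −0.95), was the lower gene of 12 matrix protease genes. ICAM1, an adhesion receptor for leukocytes (−0.69 and −0.84), was that of 16 integrin and adhesion genes. SLC7A11, the cystine transporter (−0.92 and −0.80), was the lower gene of 20 in the list of amino acid synthesis and protein stress. PFKFB3, which makes an activator of glycolysis (−0.66 and −0.82), was that of 20 glycolysis genes, and AMOTL1 (−0.81 and −0.92) that of 11 YAP and TEAD targets. No member was called in 10 of the 28 lists, among them the RAS, RAF, MEK, ERK and RSK genes (10 kept, from −0.31 to 0.12), cholesterol and fatty acid synthesis (18 kept), the interferon response (11 kept) and housekeeping genes (12 kept, from −0.22 to 0.10). The lists took in 44 of the 157 lower genes and 5 of the 19 higher ones.

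**Figure D3:**
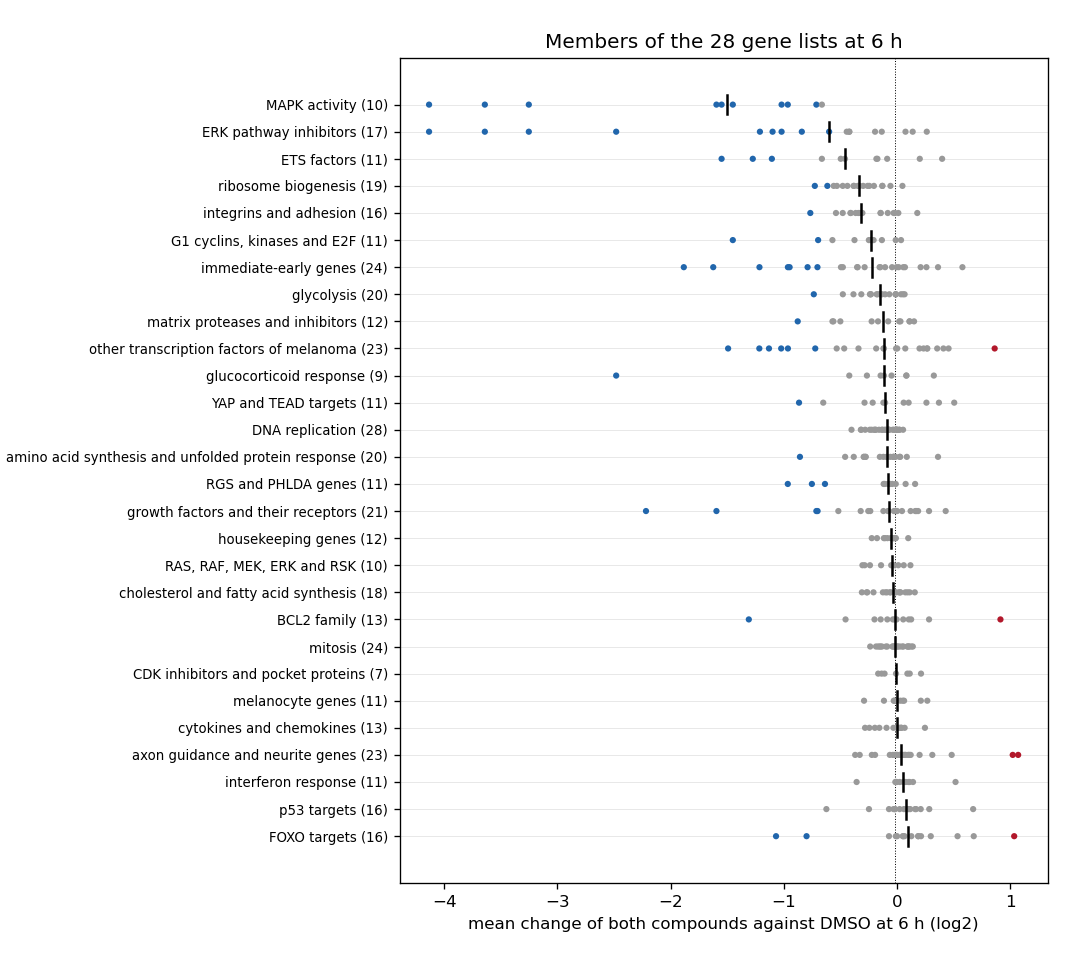
Mean change of both compounds against DMSO at 6 h (horizontal axis, log2) for every kept member of 28 gene lists (vertical axis, number kept in parentheses). Blue points are past 1.5-fold lower and red points past 1.5-fold higher with both compounds, black bars are list medians, and the dotted line is the median over all genes, −0.02. The list of MAPK activity genes has the lowest median, −1.50, with 9 of 10 members lower, and shares 4 of them with the ERK pathway inhibitors. By its name that list holds genes that follow the blocked pathway. Lists were also chosen with earlier results of these data known, so these counts are not independent support.

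Some lower genes that no list held belong to known signalling routes, and they are named here after their values were seen. In the Wnt route, the secreted inhibitor DKK1 (−1.24 and −1.0), the ligand WNT5A (−0.94 and −0.73), the nuclear effector LEF1 (−0.85 and −0.84) and the receptor-removing ligase RNF43 (−0.68 and −0.60) were lower. None of these 4 was past 1.5-fold against every DMSO column, and their mean changes against DMSO 24 h were −0.74, −0.57, −0.51 and −0.41 in that order. Among genes of the actin cytoskeleton, CDC42EP3 read 2316 with DMSO, 780 with PD184352 and 863 with PLX4720 (−1.57 and −1.42), and RND3 read 1813, 796 and 909 (−1.19 and −1.0). CEMIP, which degrades hyaluronan, read 248, 109 and 96.5 (−1.17 and −1.35), and its relative CEMIP2 was at −0.76 and −0.81. The kinase MAP3K1 was at −0.98 and −0.83. The kinases MAP3K9 (−0.66 and −0.78), MAP2K3 (−0.63 and −0.75) and RPS6KA5 (−0.67 and −0.99) were lower with DMSO 6 h as control but not against every DMSO column. The pseudokinases TRIB1 (−0.84 and −0.75) and TRIB2 (−1.02 and −0.68) and the death receptor TNFRSF21 (−1.26 and −1.19) were lower with both compounds.

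The 19 higher genes changed less, with a median of 0.80 against −0.85 for the 157 lower ones. CITED2, a coactivator partner that competes with hypoxia factors, read 291 with DMSO, 624 with PD184352 and 570.2 with PLX4720 (1.10 and 0.97). SLITRK6, a neuronal membrane protein, read 311, 723 and 590 (1.22 and 0.92). SEMA3D, a secreted semaphorin, read 83.3, 150.1 and 193 (0.84 and 1.2). Its DMSO reading lay below the median of all rows in the DMSO 6 h column, 99.3. KLF5, a zinc finger factor, was at 0.99 and 0.75, and the noncoding LINC01531 at 1.16 and 0.78. CPM, a membrane carboxypeptidase (0.87 and 0.73), SYNPO, an actin-binding protein (0.71 and 0.82), CHN1, a Rac-inactivating protein (0.69 and 0.67), LURAP1L (1.02 and 0.68) and TMEM47 (0.68 and 0.64) followed. TAS1R3, a taste receptor subunit (0.66 and 0.77), and NPY6R, a pseudogene of a neuropeptide receptor (0.66 and 0.65), were dim among the kept genes. ANXA2, LRRTM4, SIPA1L2 and ABHD4 were the remaining ones, between 0.59 and 0.83 with either compound.

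The number of higher genes depended on the control column. Set against DMSO 2 h or DMSO 24 h in place of DMSO 6 h, 71 genes were higher in each case, and against the mean of the 3 DMSO columns 30 were. Against every one of the 3 DMSO columns in turn, 10 of the 19 were past 1.5-fold: SLITRK6, SEMA3D, ZEB2, LINC01531, BMF, CPM, SYNPO, CHN1, SIPA1L2 and ABHD4. CITED2 is not among them because its DMSO 2 h column, at 8.75 in log2(intensity + 1), stood above those of 6 h and 24 h at 8.19 and 8.13. SYNPO has several rows, and the mean over them gave 0.43, which ends its call. TAS1R3 overlapped the solvent columns. Of the 19, 13 kept their call with DMSO 2 h, 13 with DMSO 24 h and 15 with the mean of the DMSO columns. The counts of lower genes under the same controls were 130, 185 and 124.

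**Figure D4:**
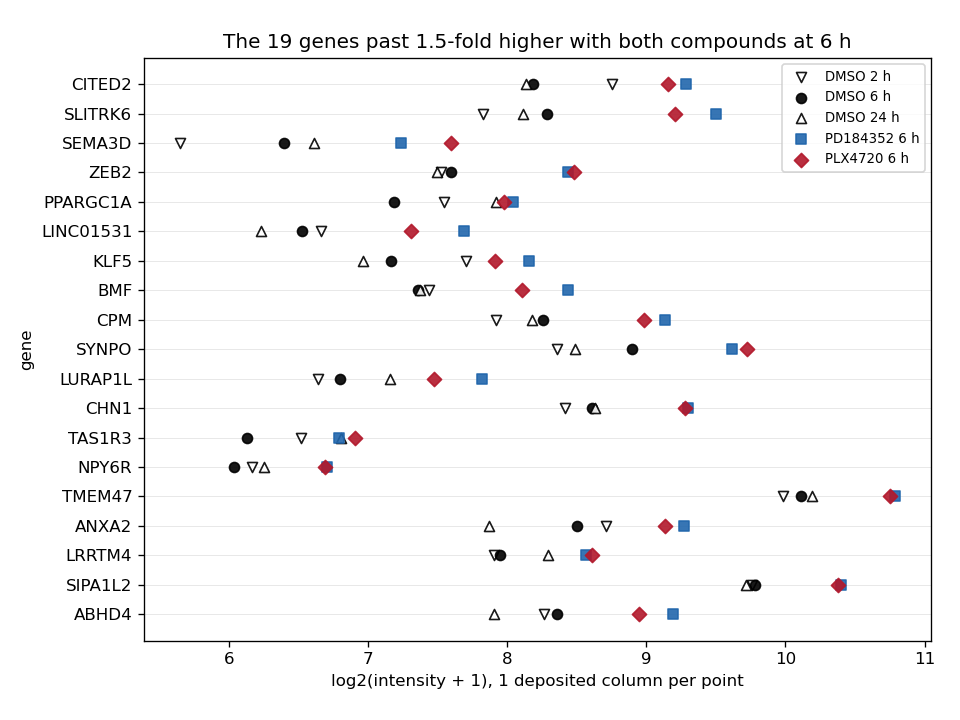
log2(intensity + 1) of the 19 genes past 1.5-fold higher with both compounds at 6 h (vertical axis), in the DMSO columns of 2, 6 and 24 h (black and open symbols), PD184352 6 h (blue squares) and PLX4720 6 h (red diamonds). In 18 of the 19 genes both inhibitor columns lie above all 3 DMSO columns, the exception being TAS1R3. BMF and ZEB2 have solvent columns close together, while those of SEMA3D span 0.97.

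The doses of the compounds differ, and their values are given side by side for the 5 called genes with the widest gap between the inhibitor columns. These were SPRY2 (−3.67 with PD184352, −2.84 with PLX4720), DUSP6 (−4.05 and −3.23), SPRY4 (−4.36 and −3.91), SH3TC2, a vesicle protein of Schwann cells (−1.27 and −0.84), and LINC01531 (1.16 and 0.78). With the mean over its rows SH3TC2 was at −0.15 in mean change, which ends its call. The median change over the 157 lower genes was −0.85 with PD184352 and −0.88 with PLX4720, and over the 19 higher genes it was 0.84 and 0.75. The call required both compounds to pass, which draws these medians together. A further 43 genes were past 1.5-fold lower with PD184352 only and 52 with PLX4720 only. In the higher direction these counts were 24 and 14.

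Each time had its own DMSO column, so the genes called at 6 h could be followed without a shared control. Of the 157 lower genes, 16 were already past 1.5-fold lower with both compounds at 2 h, where 0.156% of all genes were, and 101 were so at 24 h, where 6.68% of all genes were. The 16 were DUSP6, SPRY2, SPRY4 and ERRFI1 of the brakes, the factors EGR1, FOSL1, MYC, HES1, HOXB2 and SNAI1, and IER3, PHLDA1, PMAIP1, RGS16, RND3 and TRIB1, and 12 of them were past 1.5-fold at all 3 times. Of the 19 higher genes 0 were past 1.5-fold at 2 h (0.0235% of all genes were) and 16 were at 24 h (3.21% of all genes). The median change of the lower genes was −0.30 at 2 h, −0.85 at 6 h and −0.89 at 24 h, and that of the higher genes was 0.23, 0.80 and 1.30.

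Behind these medians the lower genes took different courses. For 15 the change at 24 h was at least 1.5-fold further down than at 6 h with both compounds. ETV5 went from −1.53 and −1.57 at 6 h to −3.45 and −3.06 at 24 h, LPL, lipoprotein lipase, from −0.73 and −0.90 to −3.33 and −2.69, and the membrane protein TM4SF1 from −1.14 and −0.96 to −3.06 and −2.61. For 12 genes the change at 24 h was at least 1.5-fold further up than at 6 h with both compounds. CIITA was among them and passed DMSO, to a mean change of 0.68 at 24 h. DKK1 went from −1.24 and −1.0 to −0.16 and 0.39, MAP3K1 from −0.98 and −0.83 to −0.15 and 0.08, and FBXO32 from −1.10 and −1.04 to −0.14 and −0.11. SPRED1 read −0.02 and 0.00 at 2 h, while SPRED2 read −0.54 and −0.38 at 2 h.

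**Figure D5:**
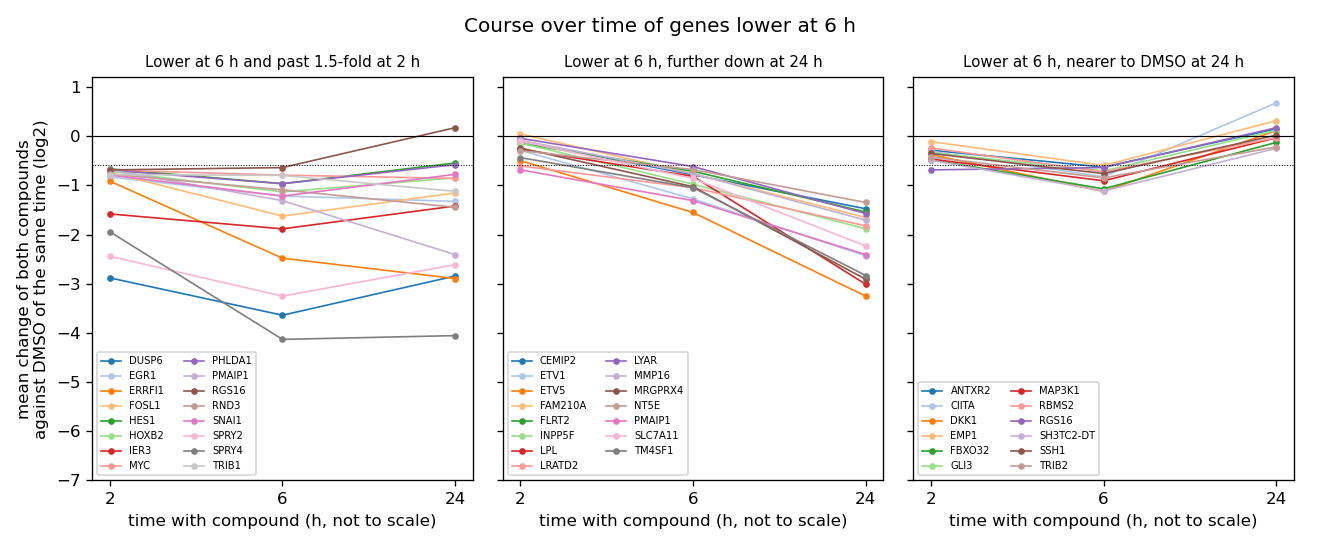
Mean change of both compounds against the DMSO column of the same time (vertical axis, log2) at 2, 6 and 24 h (horizontal axis, not to scale) for 3 sets of genes lower at 6 h, sorted by their values: 16 past 1.5-fold at 2 h (left), 15 further down at 24 h (middle) and 12 further up at 24 h than at 6 h (right). The dotted line marks 1.5-fold lower. DUSP6, SPRY2 and SPRY4 are below −1.9 at every time. The right panel's title says nearer to DMSO, but CIITA there rises past DMSO and ends highest, at 0.68.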

How the data were processed

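RNA of A375P cells was measured on gene-level exon arrays, whose rows are transcript clusters. The authors deposited linear intensities. Per the submitters' processing notes, R 2.8.0, limma and RMA were used, with no step assigned to any of them. No source used here gives a genome build. Arrays are limited in precision by their number, here 1 column per group, and no p-value was computed.

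From the deposited intensities, log2(value + 1) was taken with no further normalization (python 3.11.15, numpy 2.4.6, pandas 2.3.3). Of 35446 rows, 19380 named 1 gene in the platform table, 3339 named several and 12727 were not in it. Symbols were checked through gene identifiers against RefSeq (GRCh38.p14), and 0 changed. For the 1794 genes with several rows the row with the highest mean over all 9 columns was used. The dimmest 4262 genes by that mean were left out. No pair of columns was identical (0 pairs). Genes without a row naming 1 gene are not analysed here. Overlap between NHSL1 and NHSL1-AS1, SH3TC2 and SH3TC2-DT, or paralogs such as MRGPRX4, was not examined.

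Genes were named by a rule: the 15 furthest down and up by the smaller of both changes, the 5 with the largest difference between compounds, up to 5 per list, all ERK pathway inhibitors, and genes turned at another time. Every other gene given with values, uncalled list members included, was named after its values were seen. Genes and lists were chosen with earlier results of these data known. The calls were checked on simulated data. Alternatives were other offsets, filters, row rules, scalings, controls and folds. Promoter windows came from RefSeq.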

Additional observations from a re-analysis of the deposited data

Results flagged for a closer look

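CIITA, the master regulator of MHC class II genes, was lower at 6 h and higher at 24 h. It read 395 intensity units with DMSO, 201 with PD184352 and 246 with PLX4720 at 6 h, which are log2 differences of −0.97 and −0.68, and its mean change at 24 h was 0.68 (0.60 with PD184352 and 0.76 with PLX4720). It was the 1 gene of those called that passed 1.5-fold in opposite directions at different times, and the difference between times was not tested. Its 6 h call held only against DMSO 6 h. Against DMSO 2 h and DMSO 24 h its mean change was −0.72 and −0.62, and it was not past 1.5-fold with both compounds. At 24 h the PD184352 value lay close to the limit of 0.585.

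Rows that do not name exactly 1 gene were outside the comparisons. Above the same limit on dim rows there were 7355 of them, of which 57 (0.775%) were past 1.5-fold lower and 28 (0.381%) higher with both compounds at 6 h. With DMSO 2 h and DMSO 24 h both set against DMSO 6 h, 12 and 21 of these rows passed, so the rises stood only slightly above the solvent level.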

How the results depend on the processing

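No paired analysis was possible because each treatment and time has 1 column, so no replicate numbers are shared, and no replicate could be left out. The 157 lower and 19 higher genes and the counts with PD184352 (243 in either direction) and PLX4720 (242) stayed within 1.5 times under both other offsets, the stricter filter, the mean over rows, quantile normalization and median centring. Without a filter on dim genes 29 genes were higher. With the mean of the 3 DMSO columns as control 30 were higher, and with DMSO 2 h or DMSO 24 h 71 were. At 2-fold the lower, higher, PD184352 and PLX4720 counts were 42, 0, 59 and 49, and at 3-fold they were 9, 0, 11 and 11, as stricter limits must give fewer. Of the 157 lower genes, 142 kept their call with an offset of 16, 149 with the mean over rows, 126 with quantile normalization, 102 with DMSO 2 h and 103 with DMSO 24 h as control. Under the 8 alternatives run for single genes (568 values), no mean change of the 63 called genes among the 71 named turned its sign. These genes were picked as past 1.5-fold, so a turned sign was unlikely from the start. Some changes were nearly lost: with DMSO 24 h as control TAS1R3 went from 0.72 to 0.04 and PPARGC1A from 0.82 to 0.09. Of the 8 not called, DUSP8 went from 0.26 to −0.11 with DMSO 2 h and −0.0070 with DMSO 24 h, IL17RD from 0.07 to −0.02 with DMSO 2 h, and DUSP16 from 0.14 to −0.05 with DMSO 24 h. In all 135 values moved by more than the SD over the gene's DMSO columns, 51 of them with DMSO 2 h and 40 with DMSO 24 h as control. With another control the move is itself a difference among those DMSO columns. Counts for changed controls are therefore not comparable with those for offsets, row rules or scalings.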
